A study of Mus musculus with 5 samples.

Results

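The genes of the mouse major histocompatibility complex (H2) and the genes that load and regulate its molecules were examined in injured kidneys with and without tubular deletion of Prdm16. Members were all genes whose symbol is H2- followed by letters and digits only, which gave 29 genes, and 12 genes added by name (B2m, Tap1, Tap2, Tapbp, Erap1, Nlrc5, Cd74, Ciita, Cd1d1, Cd80, Cd86 and Cd40). This made 41 of the 35478 genes listed, and 32 of the 41 lie on chromosome 17. Another 7 H2 symbols with a dot or a second hyphen, H2-T-ps and 6 H2-M10 genes, fall outside the rule. RNA was sequenced from the kidneys of 2 Prdm16fl/fl mice, here called controls 1 and 3, and of 3 Ksp-Cre/Prdm16fl/fl mice, here called Cre mice 1, 2 and 3, with 1 library per mouse. By the strain label and the methods all 5 were C57BL/6J;129, although the sample titles give C57BL/6J alone, and all had undergone unilateral ischemia-reperfusion injury (UIRI). The pedicle of the left kidney was clamped for 35 minutes on a bath at 38.5°C, the right kidney was removed at 10 days, and tissue was taken 24 hours later, at 11 days. The methods give male littermates aged 7 to 8 weeks and name the kidney cortex. Both groups were homozygous for the floxed allele, with loxP sites around exon 9 of Prdm16. Ksp-Cre, active in tubular epithelial cells, was carried only by the second group, so the deletion was aimed at tubules and not at immune or vascular cells. Uninjured kidneys and mice with Ksp-Cre alone were not analysed here. Total counts per library were 15215871 (control 1), 14939040 (control 3), 16425161 (Cre mouse 1), 16111708 (Cre mouse 2) and 15470435 (Cre mouse 3).

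MHC class I molecules are made by nearly all nucleated cells and present peptides from inside the cell to CD8+ T cells. Class II molecules present peptides taken up from outside to CD4+ T cells and are made mainly by dendritic cells, macrophages and B cells, and by injured tubular epithelium when interferon-γ is present. Transcription of class I genes depends on Nlrc5 and that of class II genes on Ciita, both of which act through the same set of promoter-bound factors.

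Prdm16 itself, the targeted gene, had 25.3 and 20.02 TMM-normalized counts per 1000000 (CPM) in controls 1 and 3 and 17.1, 16.95 and 18.0 CPM in Cre mice 1, 2 and 3. The 3 Cre mice were all lower than the controls (log2 fold change -0.38, standard error 0.155, adjusted p = 0.259, edgeR quasi-likelihood). The count covers the whole gene in all cell types and not exon 9 alone. The mice of a genotype were not alike. The library of Cre mouse 3 stood apart from those of mice 1 and 2 (chi-square of the counts per degree of freedom 74.5 and 62.7, against 9.89 between mice 1 and 2), and where leaving it out turned the sign of a member described here or changed the calls of a list, the value without it is given too.

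Antigen presentation genes were among the most abundant transcripts of these kidneys. Per length and library (transcripts per 1000000, TPM), the 41 members together made up 1.49 and 1.61% of all transcripts in controls 1 and 3 and 1.68, 1.92 and 1.24% in Cre mice 1, 2 and 3. B2m, the light chain shared by all class I molecules, had a mean of 4246 TPM and ranked between 5th and 11th among all genes in each mouse. Next in mean level were Cd74, the invariant chain that escorts class II molecules, with 2856 TPM, and H2-Aa, a class II α chain, with 1717 TPM. The classical class I heavy chains H2-D1 and H2-K1 had 1647 and 1574 TPM, and the class II β chains H2-Ab1 and H2-Eb1 had 1400 and 934 TPM. In the coordinates of the files, whose build is not named, H2-K1 (minus strand) spans chromosome 17 from 34214986 to 34219321, H2-Ab1 from 34482201 to 34488392 and H2-Aa from 34501718 to 34506797, and H2-D1 lies apart, from 35482070 to 35486473. At the other end of expression, H2-T3, H2-M1 and H2-M11 had 0 counts in every library. A count of 0 allows up to 3 counts, or 0.183 to 0.201 CPM in these libraries, and covers counting error only. H2-M9 had 2 counts, both in Cre mouse 3, and H2-Q1 had at most 5 in any mouse. These 5 genes did not pass edgeR's filter on low counts, and the other 36 were tested.

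None of the 36 tested genes passed the test between genotypes, an adjusted p under 0.05 in edgeR's quasi-likelihood test with Benjamini-Hochberg adjustment over all 16394 genes tested. Of all genes, 0.976% passed it. At an unadjusted p under 0.05 the members counted 2, H2-Ke6 and Cd1d1, or 5.56% of 36, against 18.8% of all genes. The genotypes did not overlap for 3 members, Cd1d1 upwards and H2-Ke6 and H2-Ob downwards, whereas they did not for 41.6% of all genes (20.3% upwards and 21.3% downwards). The median log2 fold change of the members was -0.15, with 12 of 36 above 0, beside a median of 0.04 and 54.0% above 0 for all genes. DESeq2 called 1 member, H2-Ke6, and 7.32% of all genes, and limma on log2(FPKM + 1) called 0 of 33 members that passed its own filter, and 0.517% of all genes. As the tissue was a mixture of cells, fewer cells of a type and less RNA per cell cannot be told apart in any of these values.

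**Figure D1:**
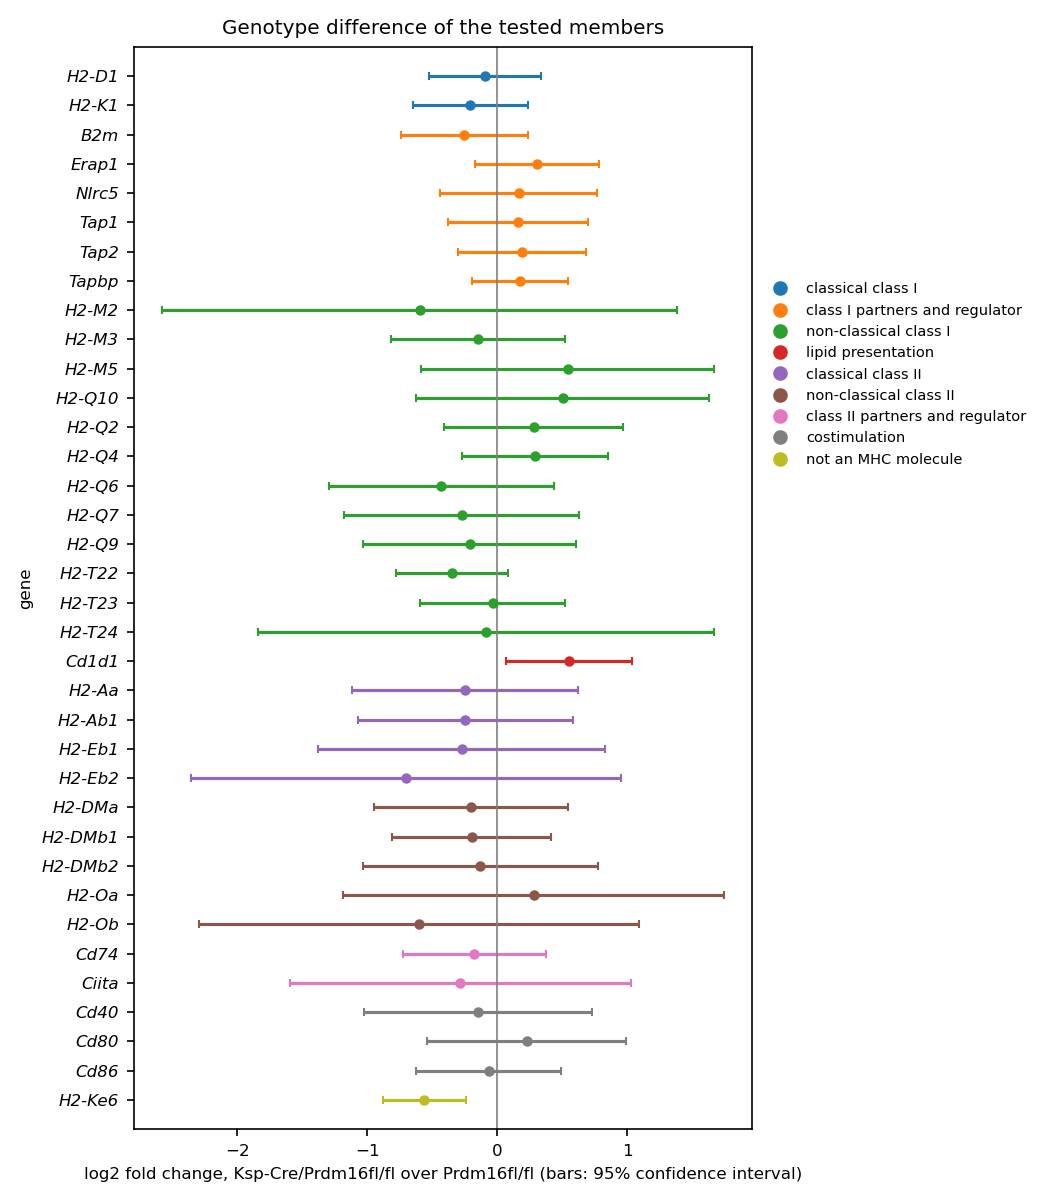
Log2 fold change of each of the 36 tested genes in Cre mice over controls (x axis, point), with its 95% confidence interval (bar) and its class (colour). The intervals of H2-Ke6, below 0, and Cd1d1, above 0, are the ones that leave out 0 before adjustment, and the class II chains have wide intervals.

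The classical class I heavy chains overlapped between the genotypes and did not pass the test. H2-K1 had 1437 and 1669 CPM in the controls and 1143, 1435 and 1460 CPM in the Cre mice. The mean was 1553 ± 164 CPM (SD, n = 2) against 1346 ± 177 CPM (SD, n = 3), with a log2 fold change of -0.21 and a 95% interval of -0.65 to 0.23. H2-D1 had 1125 and 1338 CPM in the former and 993, 1239 and 1232 CPM in the latter. Mouse 1 was the lowest of the Cre mice for both genes, and the groups overlapped. The log2 fold change of H2-D1 was -0.09 (95% interval -0.52 to 0.34), and it was 0.02 when counts were scaled by library size alone. B2m overlapped as well, with 1439 and 1914 CPM against 1249, 1613 and 1361 CPM and a log2 fold change of -0.25 (95% interval -0.74 to 0.24).

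Of the class I partners, Tap1, Tap2, Tapbp, Erap1 and Nlrc5 had slightly higher means in the Cre mice and B2m a lower one. None passed the test. Tap1 and Tap2 form the transporter that brings peptides into the endoplasmic reticulum. Tap1 had 56.4 and 62.6 CPM in the controls and 64.2, 84.5 and 50.6 CPM in the Cre mice. Tap2 had 75.2 and 72.0 CPM against 79.2, 106 and 67.1 CPM. In both genes mouse 2 of the Cre group was the highest of all 5 mice and mouse 3 the lowest. Tapbp (tapasin, which bridges the transporter and the class I molecule) had 191 and 205 CPM against 234, 245 and 190 CPM. Erap1, the aminopeptidase that trims peptides, had 71.2 and 62.4 CPM against 78.8, 102 and 66.8 CPM. Nlrc5, the transactivator of class I genes, had 38.2 and 37.2 CPM against 39.3, 56.1 and 31.2 CPM. For all 5 genes mouse 2 was the highest of the 5 mice, and the log2 fold changes lay between 0.16 (Tap1) and 0.30 (Erap1). With B2m, the median of the 6 class I partners was 0.17, and the smallest adjusted p was 0.453 (Erap1, edgeR quasi-likelihood). This median was -0.03 without mouse 2 and -0.04 with the mouse number as a block. Without mouse 3 it was 0.33, again with 0 called, in a fit that called 18.9% of all genes, 7.82% higher and 11.0% lower.

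The peptide supply list, which holds these genes without Nlrc5 and adds Tapbpl, Calr, Canx and Pdia3, had 0 of 9 genes past the test, 1 at an unadjusted p under 0.05 (Tapbpl, 11.1% against 18.8% of all genes) and 5 of 9 above 0, beside 54.0% of all genes. Tapbpl, a peptide editor related to tapasin, had the highest log2 fold change, 0.38, with 27.6 and 25.6 CPM against 34.2, 38.7 and 31.4 CPM. Calr, the chaperone calreticulin, had the lowest, -0.43, with 960 and 907 CPM against 821, 766 and 488 CPM. Neither overlapped between the groups, as for 20.3% of all genes upwards and 21.3% downwards, and neither passed the test (adjusted p = 0.218 and 0.391, edgeR quasi-likelihood). Without mouse 3, Tapbpl passed it (log2 fold change 0.45, adjusted p = 0.0292, edgeR quasi-likelihood). Of the 5 immunoproteasome genes, which encode the interferon-inducible catalytic and activator subunits, 0 passed, 0 had an unadjusted p under 0.05, and the median log2 fold change was -0.01. They ranged from Psmb9, with 25.9 and 40.0 CPM against 24.2, 33.4 and 13.2 CPM, to Psmb10, with 36.5 and 43.8 CPM against 45.1, 54.8 and 28.0 CPM. The most abundant of them, Psme1, had a log2 fold change of -0.01, and 0.01 without mouse 3, where again 0 were called.

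Non-classical class I genes showed no common direction. They include Qa and T region genes whose products present restricted sets of peptides or act as ligands of natural killer cell receptors. Of 17 such genes 12 were tested, 4 with a log2 fold change above 0 and 8 below, and 0 passed. The most abundant per length were H2-T23, which encodes Qa-1, with a mean of 262 TPM and H2-Q4 with 249 TPM. H2-Q4 had 155 and 169 CPM in the controls and 149, 195 and 253 CPM in the Cre mice, highest in mouse 3. H2-Q2 was highest there too, with 4.52 and 4.88 CPM against 4.54, 5.26 and 7.33 CPM. H2-Q10, which encodes a secreted molecule best known from liver, had 2.29 and 3.08 CPM against 1.93, 4.61 and 4.93 CPM. Mouse 3 was thus the highest of 5 mice for these 3 of the 6 tested genes of the Q region, as it was for 32.0% of all genes. It was the lowest for H2-Q7 and H2-Q9 and in between for H2-Q6.

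Other non-classical genes were lowest in the same mouse. H2-T23 had 128 and 160 CPM in the controls and 136, 178 and 108 CPM in the Cre mice, a log2 fold change of -0.04 that was 0.12 without mouse 3. H2-T22, a ligand of some γδ T cells, had 125 and 146 CPM against 103, 127 and 89.5 CPM. H2-T24 had 8.02 and 8.32 CPM against 11.8, 9.69 and 1.53 CPM. In H2-T24 mice 1 and 2 lay above both controls and mouse 3 far below, so its log2 fold change of -0.09 had a 95% interval of -1.84 to 1.67, and it was 0.06 with scaling by library size alone and 0.40 without mouse 3. H2-M2 had 6.40 and 5.96 CPM against 3.07, 8.39 and 0.733 CPM. H2-M3, which presents N-formylated peptides, had 13.6 and 14.1 CPM against 13.7, 15.3 and 8.33 CPM. Both were lowest in mouse 3. Without it the log2 fold change moved from -0.60 to -0.11 for H2-M2 and from -0.15 to 0.07 for H2-M3. H2-Q6, H2-Q7 and H2-Q9 had mean levels of 2.87 to 10.4 CPM per genotype and log2 fold changes of -0.43, -0.27 and -0.21, which were -0.53, 0.003 and -0.009 without mouse 3. H2-M5 had 6 to 17 counts per mouse.

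Near-identical class I genes can exchange reads, since the sources used here do not say how reads that match several genes were counted. The 100-base windows of the members' coding transcripts in GENCODE M21 were searched in all its transcripts on both strands. Of those of H2-Q7, 17.2% also occurred in another gene, mostly H2-Q6, and 13.9% of those of H2-Q4 did, mostly in Gm11131. H2-T22 shared 12.4%, mostly with H2-T10, and H2-T23 7.28%, mostly with Gm7030. H2-Q9 had no coding transcript in GENCODE M21. Windows shared with it may therefore be missed, and the shares of the other Q genes may be too low. The share was 4.09% for H2-D1 and 0 for H2-K1, H2-Aa, H2-Ab1, H2-Eb1, B2m and Cd74. A sum over all 19 class I heavy chain genes does not depend on how the counted reads were divided among them, but it does not cover exchange with Gm11131, H2-T10 or Gm7030, which are not in it. It was 3028 and 3539 CPM in the controls and 2574, 3242 and 3179 CPM in the Cre mice, a log2 ratio of -0.13. The 17 non-classical genes alone summed to 466 and 532 CPM against 438, 567 and 487 CPM. In both sums the groups overlapped.

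Cd1d1, which presents lipids to natural killer T cells, was separated upwards. It had 6.13 and 6.67 CPM in the controls and 8.57, 9.10 and 10.5 CPM in the Cre mice. The mean was 6.40 ± 0.381 CPM (SD, n = 2) against 9.40 ± 1.01 CPM (SD, n = 3), a log2 fold change of 0.55 (standard error 0.201). All 3 mice lay above both controls, and the difference had an adjusted p of 0.219 in edgeR's quasi-likelihood test. Cd1d1 shares 13.8% of its 100-base windows with Cd1d2.

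Class II genes showed 1 mouse apart from the other 4. All 9 class II chain genes were lowest in Cre mouse 3, which was the lowest of 5 for 32.0% of all genes. H2-Aa had 784 and 976 CPM in the controls and 896, 918 and 413 CPM in the Cre mice. H2-Ab1 had 727 and 790 CPM against 750, 806 and 363 CPM. H2-Eb1 had 628 and 804 CPM against 780, 735 and 261 CPM. Mice 1 and 2 lay within or close to the range of the controls for the 3 genes, and mouse 3 lay below all others. The means of H2-Aa were 880 ± 136 CPM (SD, n = 2) and 742 ± 286 CPM (SD, n = 3), a log2 fold change of -0.25 with a 95% interval of -1.11 to 0.62. Over the 9 chains the median log2 fold change was -0.25 with 0 called, and the standard errors ran from 0.252 to 0.696. Without mouse 3 the median was 0.05, again with 0 called and with 7 of 9 above 0. H2-Aa, H2-Ab1 and H2-Eb1 then stood at 0.05, 0.04 and 0.09.

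**Figure D2:**
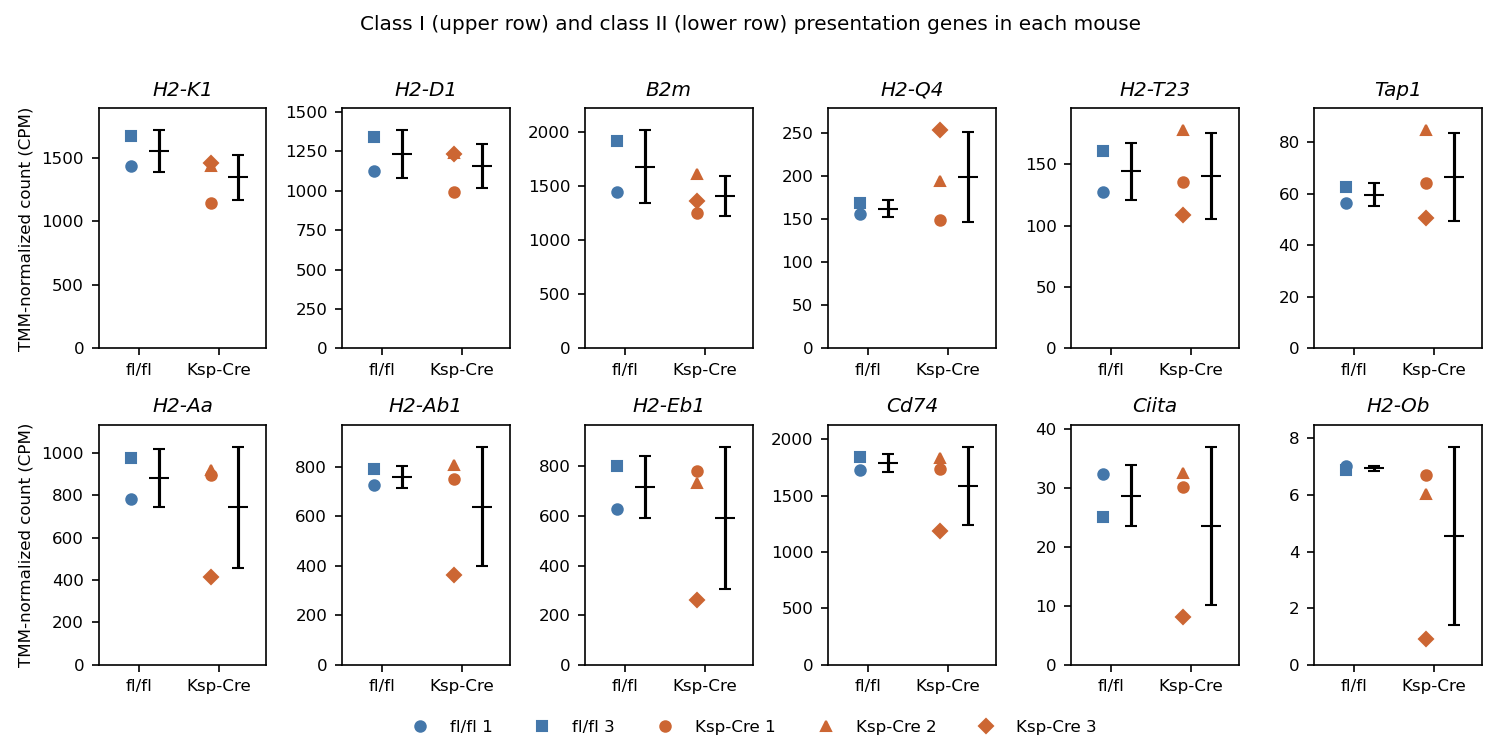
TMM-normalized counts (CPM, y axis from 0) of 6 class I (upper row) and 6 class II (lower row) presentation genes in each mouse, coloured points by genotype, with the mean and SD of each genotype (bars, n = 2 and n = 3). In the lower row the diamond, Cre mouse 3, lies below the other 4 mice in every panel, for example 413 CPM of H2-Aa.

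The promoters of class II genes are known for an arrangement of short elements shared across the family, among them the Y box, whose core ATTGG is bound by the factor NF-Y, and the X box further upstream, bound by the RFX complex. As these genes were low together in 1 mouse, the 120 bases before the RefSeq start (GRCm38.p6) are shown on the coding strand. ATTGG and GCAACNG, 1 exact form of the X box letters, are in capitals. The sequences are those of 4 class II chain genes and of the 2 classical class I genes. They lie at chr17:34287824-34287943 (H2-Aa, minus strand), chr17:34305747-34305866 (H2-Eb1, plus), chr17:34153071-34153190 (H2-DMb1, plus), chr17:34238785-34238904 (H2-Ob, plus), chr17:34000348-34000467 (H2-K1, minus, one of 2 starts) and chr17:35262974-35263093 (H2-D1, plus). The coordinates in the count files differ from those of this build.
H2-Aa: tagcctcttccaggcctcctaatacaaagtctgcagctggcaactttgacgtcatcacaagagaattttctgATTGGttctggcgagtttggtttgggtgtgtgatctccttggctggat
H2-Eb1: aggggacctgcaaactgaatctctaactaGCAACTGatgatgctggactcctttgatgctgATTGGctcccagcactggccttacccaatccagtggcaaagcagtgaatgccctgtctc
H2-DMb1: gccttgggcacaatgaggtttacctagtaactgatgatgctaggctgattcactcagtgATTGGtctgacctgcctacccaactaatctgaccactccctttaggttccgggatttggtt
H2-Ob: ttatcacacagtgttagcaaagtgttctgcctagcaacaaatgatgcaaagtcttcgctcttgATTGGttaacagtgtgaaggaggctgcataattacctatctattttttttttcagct
H2-K1: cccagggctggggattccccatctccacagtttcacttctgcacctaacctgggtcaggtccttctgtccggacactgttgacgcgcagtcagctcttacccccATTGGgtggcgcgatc
H2-D1: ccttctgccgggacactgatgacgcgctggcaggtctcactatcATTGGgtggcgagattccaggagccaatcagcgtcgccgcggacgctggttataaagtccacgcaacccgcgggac

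ATTGG starts 48 bases before the start in H2-Aa, 59 in H2-Eb1, 61 in H2-DMb1 and 57 in H2-Ob. In class II chain genes not shown it starts 43 bases before in H2-Oa, 90 in H2-DMb2 and 100 in H2-Eb2. H2-DMa has it 198 bases before a listed start and not before another. In the table of 250 bases before each start, 30 members had a promoter. ATTGG was present on the coding strand in 8 of 8 class II chain genes and in 10 of 16 class I heavy chain genes, against 19.7% of 32851 promoters. Counting both strands, it was present in 8 of 8, in 13 of 16 and in 33.8%. A gene counted if any of its listed starts had the letters, whereas the share of all promoters counted each promoter apart. The rates are therefore not fully alike. GCAACNG, searched in the same way on both strands, was found in 2 of 8 class II genes (H2-Eb1 and H2-Eb2), in 0 of 16 class I genes and in 10.2% of all promoters. ATTGG and GCAACNG share no base in the sequences shown. These are matches of letters, and binding was not measured.

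H2-Eb2, a second E β chain gene, was barely detected, with 3 to 25 counts per mouse and the fewest in mouse 3. The non-classical class II molecules are not antigen presenters but act on peptide loading. H2-DM, encoded by H2-DMa, H2-DMb1 and H2-DMb2, removes the invariant chain fragment, and H2-O, encoded by H2-Oa and H2-Ob, restrains H2-DM, chiefly in B cells. H2-DMa had 60.1 and 73.7 CPM in the controls and 60.3, 77.8 and 36.5 CPM in the Cre mice. H2-DMb1 had 85.8 and 100.5 CPM against 91.2, 97.3 and 55.2 CPM. H2-DMb2 had 44.1 and 37.1 CPM against 33.4, 55.9 and 21.9 CPM. The same mouse was the lowest in all 3 genes, and their log2 fold changes were -0.20, -0.20 and -0.13, which turned to 0.05, 0.02 and 0.14 without it. H2-DMb1 and H2-DMb2 share 13.7 and 10.3% of their 100-base windows, so part of their reads may have been exchanged.

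Among the class II chains, H2-Ob lay farthest below the controls in mouse 3. It had 7.01 and 6.89 CPM in the controls and 6.70, 6.03 and 0.933 CPM in the Cre mice. This was 104 and 96 counts against 118, 102 and 14 counts. All 3 Cre mice lay below both controls, but mice 1 and 2 deviated from the control mean by -0.05 and -0.20 on the log2 scale and mouse 3 by -2.74. The log2 fold change of -0.60 had a standard error of 0.696, and it was -0.12 without mouse 3. H2-Oa had 1.75 and 2.15 CPM against 2.73, 3.54 and 0.800 CPM, so that mice 1 and 2 lay above both controls and mouse 3 below them.

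Ciita, the transactivator of class II genes, was low in the same library. It had 32.4 and 25.04 CPM in the controls and 30.1, 32.5 and 8.13 CPM in the Cre mice. Its log2 fold change was -0.28 (95% interval -1.60 to 1.03) and 0.12 without mouse 3. Cd74 had 1730 and 1845 CPM against 1735, 1830 and 1185 CPM. Mice 1 and 2 lay within the range of the controls for Cd74, and mouse 3 deviated from their mean by -0.59 on the log2 scale, against -1.08 for H2-Aa, -1.06 for H2-Ab1 and -1.44 for H2-Eb1. Ratios within a library do not depend on its depth. Per length, Cd74 was 0.727 and 0.649 times the sum of H2-Aa, H2-Ab1 and H2-Eb1 in the controls and 0.649, 0.670 and 1.01 times in the Cre mice.

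The balance of the classes differed in the same way. The summed TPM of H2-Aa, H2-Ab1 and H2-Eb1 was 1.29 and 1.31 times that of H2-K1 and H2-D1 in controls 1 and 3. It was 1.73, 1.41 and 0.599 times in Cre mice 1, 2 and 3. The sum of these 3 class II chains exceeded that of the 2 class I heavy chains in 4 mice and lay below it in mouse 3. In this ratio mice 1 and 2 were above both controls, and the groups overlapped. Its level depends on which chains are summed. B2m, the class I light chain, was left out and alone had 3850 and 4644 TPM in the controls and 3904, 5037 and 3794 TPM in the Cre mice. Within the class II chains H2-Aa had 1.14 to 1.31 times the TPM of H2-Ab1 over the 5 mice. H2-Eb1 had 0.617 and 0.727 times that of H2-Ab1 in the controls and 0.743, 0.651 and 0.515 times in the Cre mice, so mouse 3 was the lowest there too. The ratio of B2m to H2-K1 and H2-D1 was 1.28 and 1.45 against 1.33, 1.37 and 1.15.

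**Figure D3:**
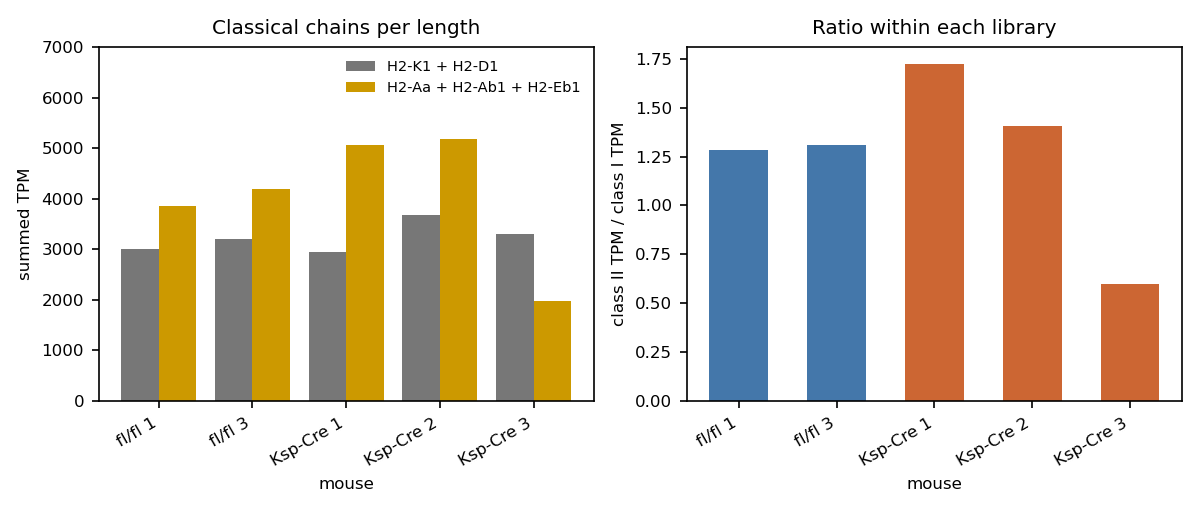
Left, summed TPM (y axis) of the classical class I chains H2-K1 and H2-D1 (grey) and the class II chains H2-Aa, H2-Ab1 and H2-Eb1 (yellow) in each mouse, 1 bar per library without error. Right, the ratio of this class II sum to this class I sum, coloured by genotype, is above 1 in 4 mice and 0.599 in Cre mouse 3.

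Over all members, mouse 3 was the lowest of the 5 for 25 of 36, or 69.4%, against 32.0% of all genes. It was at least 1 log2 unit below the next lowest mouse for 8 of 36, against 4.20% of all genes. These were the class II chains H2-Ab1, H2-Eb1, H2-Eb2, H2-Oa and H2-Ob, with Ciita, H2-T24 and H2-M2. Relative to the control mean, the median over the 9 class II chains was -0.03, 0.07 and -1.08 on the log2 scale in Cre mice 1, 2 and 3. For the 14 tested class I heavy chains, whose median log2 fold change was -0.12 with all mice and 0.03 without mouse 3, it was -0.29, 0.24 and -0.29, and for the 6 class I partners 0.11, 0.52 and -0.18. The median of all genes was within 0.03 of 0 in every mouse. Without mouse 3, 25 of 36 members had a log2 fold change above 0, the median was 0.07 beside 0.02 for all genes, and 1 member, H2-Ke6, was called, when 18.9% of all genes were.

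**Figure D4:**
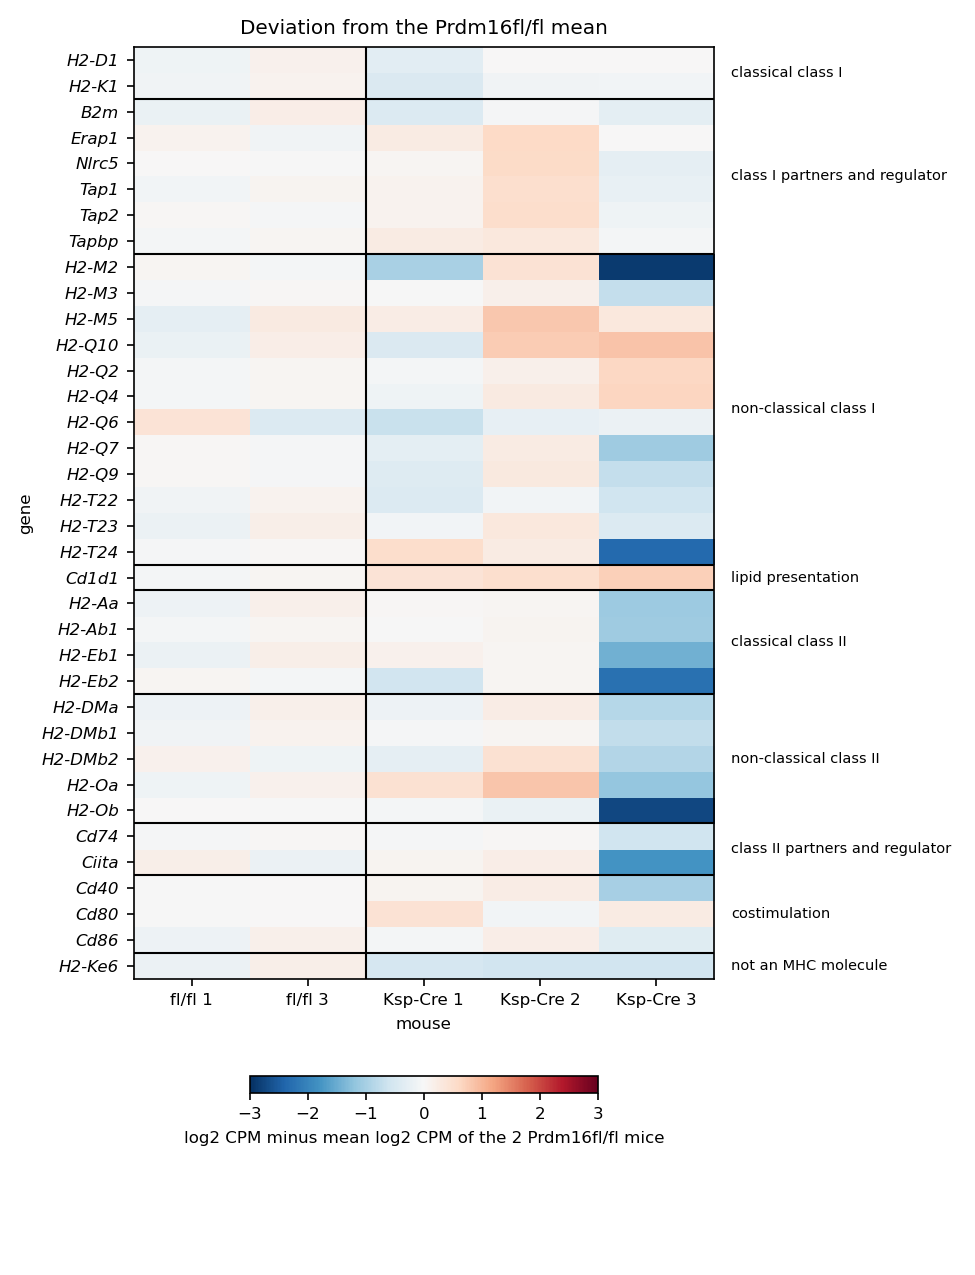
Difference of each tested member (rows, grouped by class) in each mouse (columns) from the mean of the 2 controls, in log2 CPM, from blue (lower) to red (higher). Blue in the class II rows is concentrated in Cre mouse 3, whose median over class II chains was -1.08, while Cre mouse 2 is pale red over the class I partners.

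The costimulatory molecules Cd40, a receptor, and Cd80 and Cd86, ligands of Cd28 and Ctla4 on T cells, mark activated antigen-presenting cells and did not pass the test. Cd40 had 12.7 and 12.8 CPM in the controls and 13.4, 14.8 and 6.33 CPM in the Cre mice. Cd86 had 9.44 and 11.7 CPM against 10.1, 11.99 and 8.19 CPM. Cd80 had 1.75 and 1.79 CPM against 2.44, 1.65 and 2.13 CPM. Mouse 3 was the lowest for Cd40 and Cd86, not for Cd80, and the groups overlapped for all 3. The log2 fold change of Cd86 was -0.07, 0.055 with scaling by library size alone and 0.065 without mouse 3. That of Cd40 was -0.15, and 0.15 without mouse 3. In the wider costimulation list 0 of 8 tested genes passed and 0 had an unadjusted p under 0.05, from Ctla4, an inhibitory T cell receptor, at -0.82 to Cd40lg, the ligand of Cd40, at 0.35. The most abundant, Icosl, was at 0.01, and Pdcd1lg2 did not pass the filter on low counts.

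H2-Ke6 (Hsd17b8) lies in the complex but encodes a hydroxysteroid dehydrogenase and takes no part in presentation. It had 82.9 and 104 CPM in the controls and 65.6, 62.6 and 62.0 CPM in the Cre mice. The 3 Cre mice lay close together and below both controls. Its log2 fold change of -0.56 (standard error 0.132) had the smallest p of the members (adjusted p = 0.103, edgeR quasi-likelihood). It was called without mouse 3 (log2 fold change -0.54, adjusted p = 0.0188, edgeR quasi-likelihood) and by DESeq2 (-0.57, adjusted p = 0.0276). Of its 100-base windows 42.8% also occur in Gm20427, a gene model that overlaps it.

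Regulators of MHC genes were taken as a list of 16, of which 15 were tested and 0 passed, with 3 at an unadjusted p under 0.05 (Ifngr2, Ifngr1 and Nfyc), or 20% against 18.8% of all genes. The median log2 fold change was 0.09 with 12 of 15 above 0, beside 54.0% of all genes. Of the 15, 5 were separated upwards and 1 downwards, beside 20.3 and 21.3% of all genes. Ifngr2, a subunit of the interferon-γ receptor, had 53.1 and 53.2 CPM in the controls and 78.6, 81.8 and 80.6 CPM in the Cre mice. All 3 mice lay above both controls (log2 fold change 0.60, standard error 0.101, adjusted p = 0.0552, edgeR quasi-likelihood), and DESeq2 called the gene, beside 7.32% of all genes. Ifngr1, the other subunit and the most abundant gene of the list, had 124 and 127 CPM against 165, 168 and 153 CPM and was separated too. Nfyc, a subunit of NF-Y, had the lowest log2 fold change, -0.40, with 80.2 and 79.9 CPM against 69.3, 63.9 and 49.4 CPM. Ifng itself had 2 to 6 counts per mouse and did not pass the filter on low counts. Without mouse 3, 3 of the 15 regulators were called higher, Ifngr2 and Ifngr1 among them, when 7.82% of all genes were.

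The class II processing list holds Cd74 and the enzymes that cut it and its cargo, with March ligases that remove class II from the surface. Of 7 genes 0 passed and 1 had an unadjusted p under 0.05 (Ctss, 14.3% against 18.8% of all genes), with a median log2 fold change of 0.15. Ctss, the protease that makes the last cuts in the invariant chain, had 176 and 211 CPM in the controls and 312, 266 and 250 CPM in the Cre mice, separated upwards like 20.3% of all genes (log2 fold change 0.51, adjusted p = 0.168, edgeR quasi-likelihood). Without mouse 3 it passed, as 7.82% of all genes did upwards (log2 fold change 0.58, adjusted p = 0.0173, edgeR quasi-likelihood). Ctsl, a lysosomal protease that tubules also express, had the highest log2 fold change, 0.53, with 726 and 754 CPM against 816, 788 and 1592 CPM. Without mouse 3 it was at 0.12, below Ctss. Cd74 had the lowest, -0.17. Ctss was above both controls in mouse 3 as well, in contrast to the class II chains, and Ctsl was highest there.

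Markers of dendritic cells and lymphocytes were low in the mouse with low class II values, and those of macrophages went both ways there. Their part in the result was not tested. Of 10 dendritic cell genes 9 were lowest in Cre mouse 3, and 7 by at least 1 log2 unit, beside 32.0 and 4.20% of all genes. Their median relative to the control mean was 0.17, 0.05 and -1.83 in Cre mice 1, 2 and 3, and their summed level was 105 and 100 CPM against 114, 111 and 40.8 CPM. Itgax (CD11c), the most abundant, had 33.8 and 32.3 CPM against 32.8, 28.7 and 8.26 CPM. Xcr1, of cross-presenting dendritic cells, had the lowest log2 fold change with 2.70 and 4.74 CPM against 3.01, 3.07 and 0.466 CPM. Flt3, the highest, did not share the pattern, with 4.05 and 5.38 CPM against 5.62, 6.03 and 5.20 CPM. None of the 10 passed the test between genotypes, 0 had an unadjusted p under 0.05, and 2 were called higher without mouse 3, beside 7.82% of all genes.

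Of the 12 macrophage genes 4 were lowest in mouse 3, or 33.3%, near the 32.0% of all genes, with medians of 0.50, 0.39 and -0.10 in Cre mice 1, 2 and 3. However, 3 of the 12 were lowest by at least 1 log2 unit, beside 4.20% of all genes. These were Lyz2, Adgre1 and Cx3cr1. Adgre1 had 36.5 and 40.6 CPM against 51.7, 51.0 and 12.3 CPM. Cx3cr1 had 28.5 and 20.7 CPM against 51.3, 50.45 and 4.46 CPM. The summed level of the 12 genes was 1142 and 1556 CPM against 1800, 1686 and 1055 CPM, lowest in mouse 3. Lyz2, the most abundant, had 464 and 716 CPM against 772, 699 and 229 CPM. Cd14 had the highest log2 fold change, 1.08, with 43.7 and 74.0 CPM against 92.2, 106 and 176 CPM. Mertk had the lowest, -0.23, with 85.8 and 78.4 CPM against 51.0, 63.1 and 96.0 CPM, and both genes were highest in mouse 3. None of the 12 passed with all mice, and 1 had an unadjusted p under 0.05 (Cd14, 8.33% against 18.8% of all genes). DESeq2 called Cd14 too, beside 7.32% of all genes. Without mouse 3 the test called 7 higher and 1 lower, beside 7.82 and 11.0% of all genes. The gene called lower was Mertk, then at -0.52 (adjusted p = 0.0199, edgeR quasi-likelihood).

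Lymphocyte genes were low in mouse 3 as well. Of 11 T and natural killer cell genes all were lowest there, beside 32.0% of all genes, with medians of -0.35, 0.09 and -1.27, a summed level of 62.8 and 71.2 CPM against 56.9, 77.1 and 34.3 CPM. None passed the test, and 1 had an unadjusted p under 0.05 (Gzma, 9.09% against 18.8% of all genes). Cd8a, the most abundant and the highest of them, had 14.7 and 15.5 CPM against 18.4, 18.3 and 10.3 CPM. Klrb1c, the lowest, had 16 and 10 counts against 7, 8 and 0. Of 8 B cell genes 5 were tested, 4 of them lowest in mouse 3 (80.0%, beside the same 32.0%), with medians of -0.09, 0.18 and -0.89, a summed level of 6.54 and 6.39 CPM against 5.28, 6.91 and 3.67 CPM. None passed the test or had an unadjusted p under 0.05. Cd79b was the most abundant, with 2.63 and 3.37 CPM against 2.90, 3.66 and 1.87 CPM. Fcer2a had the highest log2 fold change, 0.78. The defining B cell markers Ms4a1, Pax5 and Blk had at most 17, 6 and 8 counts per mouse and did not pass the filter.

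Low values in mouse 3 were not confined to immune genes, and endothelial genes did not share them. Endothelial genes, of cells that carry class I and can be induced to carry class II, had a median of 0.23 in mouse 3 and 0 of 8 lowest there, beside 32.0% of all genes. Plvap, the most abundant, had 58.5 and 73.9 CPM against 86.0, 64.0 and 132 CPM, and log2 fold changes ran from -0.67 (Kdr) to 0.74 (Flt1) with 0 of 8 past the test and 1 at an unadjusted p under 0.05 (Kdr, 12.5% against 18.8% of all genes), which was called lower without mouse 3. Flt1 had 39.0 and 30.9 CPM against 40.3, 39.1 and 96.5 CPM, and its log2 fold change was 0.19 without mouse 3. The labelled tissue was checked by proximal tubule genes, which were all detected. Their median was -0.90, -0.62 and -1.74 in Cre mice 1, 2 and 3, with 0 of 9 past the test, 6 at an unadjusted p under 0.05, 4 called by DESeq2 and 8 of 9 separated downwards, beside 18.8, 7.32 and 21.3% of all genes for the last 3 counts. Mouse 3 was the lowest for 6 of 9 (66.7%), and for 3 by at least 1 log2 unit, beside 32.0 and 4.20% of all genes. Without it 7 of 9 were called lower, beside 11.0% of all genes. Slc27a2 was the most abundant, and log2 fold changes ran from -1.97 (Slc34a1) to -0.37 (Hnf4a). Tubular injury genes had medians of 0.97, 0.95 and 1.22, with 0 of 8 past the test, 7 at an unadjusted p under 0.05, 6 called by DESeq2 and 7 of 8 separated upwards, beside 18.8, 7.32 and 20.3% of all genes for the last 3 counts. Without mouse 3 all 8 were called higher, beside 7.82% of all genes. They ran from Krt8 at 0.39 to Lcn2 at 1.89, and Spp1 was the most abundant.

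**Figure D5:**
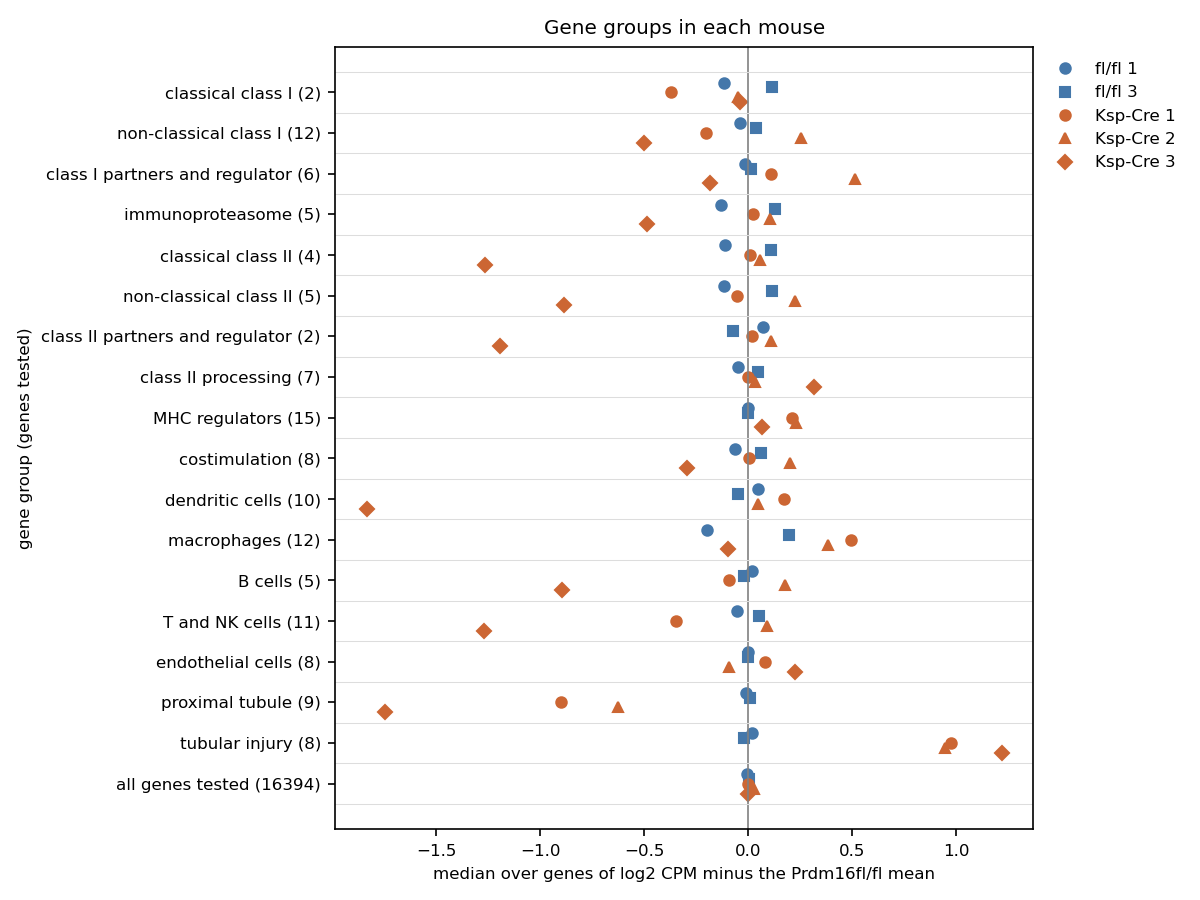
Median over the tested genes of each group (number in brackets) of log2 CPM minus the control mean (x axis), 1 point per mouse. Cre mouse 3 (diamond) lies farthest to the left in several rows, among them both class II groups, dendritic cells, B cells, T and NK cells and proximal tubule, at -1.83 for dendritic cells and -1.74 for proximal tubule, and to the right of 0 for endothelial cells, at 0.23.

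The remaining lists were given as a check of tissue and blood content. Of 9 genes of the loop of Henle and distal nephron 0 passed and 1 had an unadjusted p under 0.05 (Slc12a1, 11.1% against 18.8% of all genes). DESeq2 called Slc12a1 too, beside 7.32% of all genes, and 4 of the 9 were separated downwards, beside 21.3%. The median log2 fold change was -0.60, from Slc12a3 at -1.22 to Cldn16 at -0.18, and Umod was the most abundant. Mouse 3 was the lowest for 7 of 9 (77.8%), and for 2 by at least 1 log2 unit, and without it 2 of 9 were called lower, beside 32.0, 4.20 and 11.0% of all genes. Of 5 podocyte genes 1 passed, Nphs1 at -0.85 (adjusted p = 0.0412, edgeR quasi-likelihood), with Synpo highest at -0.06 and Podxl the most abundant. Without mouse 3, 4 of 5 were called lower, beside 11.0% of all genes. Haemoglobin transcripts, 4 genes from red blood cells, reached 6.27 and 9.69 CPM in sum in the controls and 148, 146 and 38.6 CPM in the Cre mice. None passed edgeR's test, and all 4 had an unadjusted p under 0.05, were called by DESeq2, were separated upwards and were called higher without mouse 3, beside 18.8, 7.32, 20.3 and 7.82% of all genes. They ran from Hbb-bs, the most abundant, at 3.63 to Hba-a2 at 5.35. Among the Cre mice they were lowest in mouse 3, the mouse with the lowest class II values, and their part in the values of the members was not tested.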

How the data were processed

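Kidney RNA-seq of 2 Prdm16fl/fl and 3 Ksp-Cre/Prdm16fl/fl mice was grouped by the genotype in the sample labels. The authors deposited, for each mouse, the raw read count per gene without normalization, which was used for the count tests. They also deposited TPM, used for levels between genes, and FPKM, used for an alternative test. Both are scaled by gene length and library, and were recomputed from the counts to within rounding. The submitters' processing notes name CASAVA, featureCounts 2.0.1, DESeq2 1.16.1 and the human build hg38, although symbols and coordinates are of mouse. The aligner, the mouse build and the strand setting are not given in the sources used here. Lines of 5 genes, broken in the files, were rejoined.

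Counts were filtered with filterByExpr of edgeR 4.0.16, scaled with TMM and tested with the quasi-likelihood test without covariates in R 4.3.3. Calls are at a Benjamini-Hochberg adjusted p under 0.05 over 16394 genes. CPM are per 1000000 TMM-scaled counts, and intervals are 95% intervals of that fit. P-values measure the spread between these mice. Members and lists were chosen with earlier results of these data known. The genes named are all classical, DM and O genes, the genes added by symbol, non-classical class I genes whose mean log2 CPM was not below 0, called members, and of each list the called, most abundant, highest and lowest genes. Some genes under this rule are not reported here. The lists are class I peptide supply, immunoproteasome, class II processing, MHC regulators, costimulation, dendritic cells, macrophages, B cells, T and NK cells, endothelium, proximal tubule, distal nephron, podocytes, tubular injury and haemoglobins.

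Alternatives were library size or upper-quartile scaling, DESeq2 1.42.0, a filter of 1 count summed over the libraries or of 10 counts in each, the mouse number as a block, and leaving out each mouse. Also tried was limma 3.58.1 on log2(FPKM + 1) and, with the other pseudocount, log2(FPKM + 0.1), where 2 libraries had to reach an FPKM of 1. No 2 libraries were duplicates. In simulated counts for the genotype comparison, over all genes kept by its filter, edgeR called 65.0% of 100 genes with a simulated log2 fold change of 1.5, and 0.0693% of 15866 genes without one. Windows of 100 bases were taken from the members' coding transcripts in GENCODE M21, which held 40 members, all but H2-Q9. They were searched in all transcripts of GENCODE M21 on both strands. Python 3.11.15, pandas 2.3.3 and matplotlib 3.10.9 served for tables and figures.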

Additional observations from a re-analysis of the deposited data

How the results depend on the processing

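The count of members called was 0 in the analysis as reported and under scaling by library size or upper quartile, no filter, at least 10 counts in every library, both limma settings and the replicate block. DESeq2 called 1, H2-Ke6, and fits without single mice called 0 to 1, the 1 being H2-Ke6 without Ksp-Cre/Prdm16fl/fl mouse 3. Scaling by library size alone raised the all-gene median from 0.04 to 0.15, and it turned the sign of Cd86 (0.055), H2-D1 (0.018), H2-T24 (0.056) and H2-T23 (0.088). On log2(FPKM + 1) the sign turned for Cd86 (0.029), H2-D1 (0.017) and H2-T23 (0.055), and on log2(FPKM + 0.1) for Cd86 (0.034), H2-D1 (0.017) and H2-T23 (0.055). The values of low genes depend on the pseudocount, as for H2-M2 at -0.64 with 1 and -1.02 with 0.1, beside -0.60 as reported.

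The mouse numbers gave no sign of pairing, as the deviations of same-numbered mice from their genotype means correlated at 0.00 (number 1) and -0.02 (number 3). With 2 controls the deviations of the controls mirror each other. This check therefore rests on a single contrast and cannot exclude pairing. With the mouse number as a block the sign turned for Nlrc5 (-0.10), H2-Oa (-0.31), Tap1 (-0.059) and Tap2 (-0.013). The median of the class I partners turned as well, from 0.17 to -0.036. With the block 0 of all genes were called, against 160 without it, with 2061 at an unadjusted p under 0.05.

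Leaving out each mouse in turn, the median of the class II chains ranged from -0.46 to 0.05, that of the class I heavy chains from -0.29 to 0.03 and that of the class I partners from -0.03 to 0.33. The cause of these changes was not tested. The sign turned within the ranges of H2-Q6 (-0.80 to 0.068), Cd86 (-0.22 to 0.094), H2-D1 (-0.22 to 0.036), H2-T23 (-0.24 to 0.14), Nlrc5 (-0.093 to 0.34), H2-Oa (-0.13 to 0.69), Tap1 (-0.05 to 0.32), Tap2 (-0.007 to 0.33), Cd40 (-0.37 to 0.15), Ciita (-0.58 to 0.12), H2-DMa (-0.47 to 0.048), H2-DMb2 (-0.55 to 0.14), H2-DMb1 (-0.34 to 0.021), H2-Ab1 (-0.45 to 0.04), H2-Aa (-0.43 to 0.048), H2-Eb1 (-0.52 to 0.086), H2-Q7 (-0.62 to 0.003), H2-T24 (-0.53 to 0.40) and H2-M3 (-0.32 to 0.073). Over all genes, fits without either Prdm16fl/fl mouse or without Ksp-Cre/Prdm16fl/fl mouse 1 or 2 called 0, with 1330 to 2514 at an unadjusted p under 0.05, and the fit without mouse 3 called 3053. Without a Prdm16fl/fl mouse that group is 1 library, assumed to vary like the Ksp-Cre/Prdm16fl/fl mice, so those fits say nothing on stability. At 3 to 25 counts per mouse, H2-Eb2 and H2-M5 were too shallow to show moderate differences.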
